A study of Mus musculus with 2 samples.

Results

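The levels of 10 genes for glutamate receptors and their subunits were followed through the oligodendrocyte lineage of the mouse optic nerve. They are Gria1, Gria2, Gria3 and Gria4 (AMPA receptor subunits), Grik2 and Grik3 (kainate receptor subunits), Grin3a (an NMDA receptor subunit), and Grm3, Grm5 and Grm7 (metabotropic receptors). They were taken by name from the deposited expression tables, and all 10 were found among the 31053 gene rows. Cells had been dissociated from 5 uninjured nerves and, separately, from 5 nerves 2 weeks after optic nerve crush (ONC), and each pool was captured as 1 droplet library (10x Chromium v2 chemistry). The mice of both pools were wildtype, of strain 129S1/SvlmJ and of both sexes. They were 10 weeks old in the design text, with ONC at 8 weeks, while the sample labels give P56. The authors assigned each barcode of the lineage to oligodendrocyte precursor cells (OPC), newly formed oligodendrocytes (NFO) or oligodendrocytes, and these types are used here. Each condition is 1 library of pooled nerves, so differences have no replicate check, no test between conditions was possible and no p-value is given. Ranges in brackets after a level, share or ratio are 95% intervals, and they take in no error beyond that of counting.

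Glutamate released by axons reaches cells of this lineage through synapse-like contacts on OPCs and along the axon. AMPA and kainate receptors are ion channels that open quickly on glutamate, NMDA receptors pass calcium under further conditions, and metabotropic receptors act through G proteins. OPCs are known for AMPA receptor currents that fade as the cells differentiate, and calcium-permeable receptors of these classes are known for a part in excitotoxic damage to oligodendrocytes.

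The uninjured library held 58 OPC, 44 NFO and 857 oligodendrocyte barcodes, and the injured library held 17, 100 and 293. UMIs (unique molecules counted near the 3′ end of the RNA) were recovered from the deposited log values, and a level is given as counts per 1000000 (CPM), the UMIs of the gene over all UMIs of the class. Each UMI stands for 1 RNA molecule, so levels were not divided by gene length. Median depths were 2290 and 4120 UMIs in uninjured and injured OPCs, 1259.5 and 1258.5 in NFOs, and 3060 and 1268 in oligodendrocytes. Summed OPC markers stood at 20026 and 18410 CPM in the OPC barcodes against 584 and 702 CPM in oligodendrocytes, and summed oligodendrocyte markers at 77656 and 67818 CPM in oligodendrocytes against 5405 and 1335 CPM in OPCs. The NFO type was mixed: it held 5514 and 8290 CPM of NFO markers, 9200 and 5858 of OPC markers and 14937 and 21427 of oligodendrocyte markers. Typed by these marker lists, 13 of 44 uninjured and 68 of 100 injured NFO barcodes stayed NFOs. The libraries shared 0 barcode sequences. Barcodes with under 0.5% of their UMIs from Malat1, a nuclear RNA, were 0 of 58 uninjured and 5 of 17 injured OPCs, 28 of 44 and 77 of 100 NFOs, and 48 of 857 and 133 of 293 oligodendrocytes. RNAs of other cells differed between libraries as well: the 10 immune markers summed to between 10.6 and 20.7 CPM in the uninjured classes and between 169 and 406 CPM in the injured ones. The 10 neuron markers summed to between 25.8 and 181 CPM and between 42.5 and 108 CPM, and Slc17a6, the vesicular glutamate transporter of retinal ganglion cells, was at 0 in all 6 classes. The 8 vascular and fibroblast markers summed to between 0 and 31.9 CPM and between 13.5 and 42.6 CPM, and the 8 Schwann cell markers to between 563 and 947 CPM and between 313 and 1021 CPM, with Prx and Pmp2 at 0 in all 6 classes. The part of these RNAs in the results was not tested.

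Receptor RNA was most abundant in OPCs, and its make-up differed along the lineage. Summed over the 10 genes, OPCs held 2708 CPM without injury and 1769 CPM after ONC, NFOs 1179 and 1071 CPM, and oligodendrocytes 162 and 184 CPM. Gria2 led in OPCs and NFOs of both libraries. In oligodendrocytes Grm3 led without injury, and Grik2 and Gria4 led after ONC, while Gria1 and Grm7 were rare throughout.

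**Figure D1:**
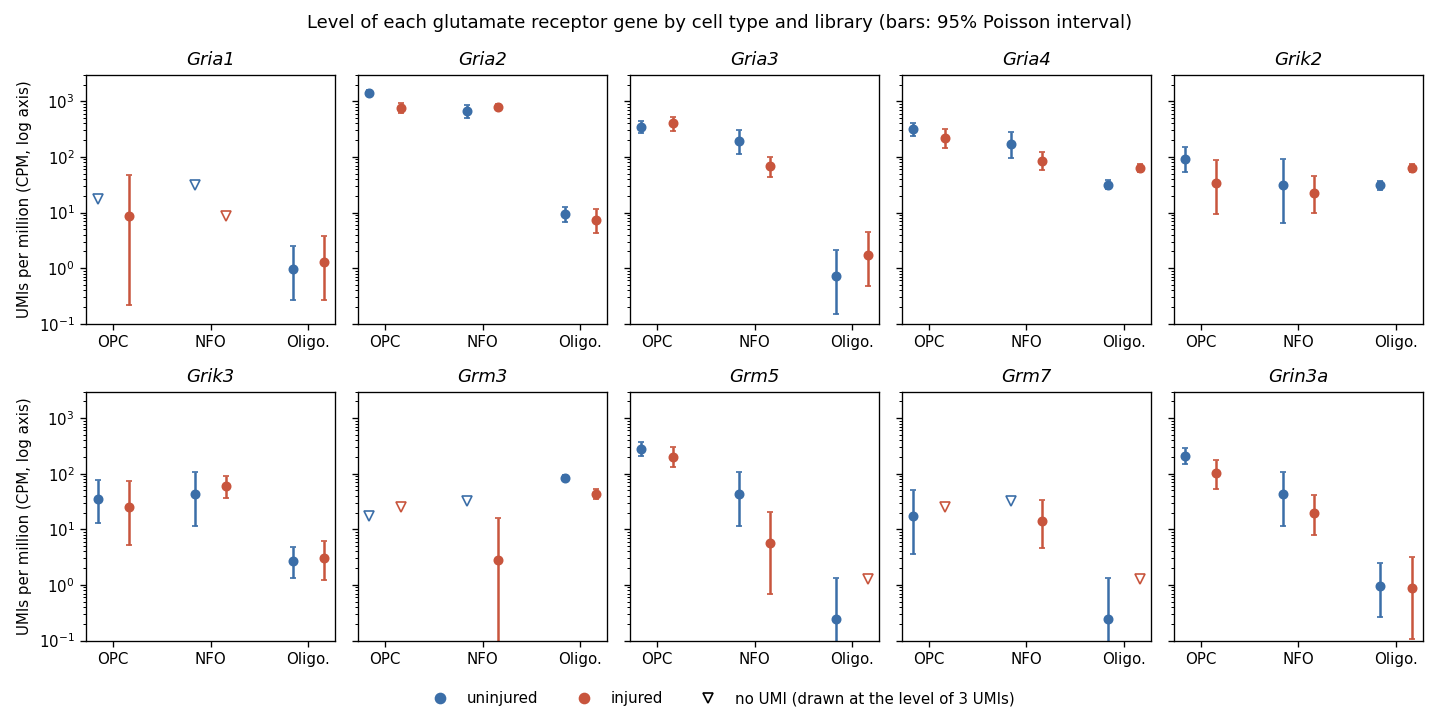
Level of each receptor gene (CPM, log axis) in OPCs, NFOs and oligodendrocytes (Oligo.) of the uninjured and injured libraries. Points are summed UMIs with 95% Poisson intervals, some of which run below the axis, and open triangles mark classes with no UMI, drawn at the level of 3 UMIs. Gria2, Gria3, Grm5 and Grin3a lie lower in oligodendrocytes than in OPCs in both libraries, and Grm3 has its 2 highest points in oligodendrocytes.

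Gria2 (ENSMUSG00000033981; chromosome 3 of GRCm38, 80681450 to 80802835, minus strand) encodes the AMPA receptor subunit that, once its RNA is edited, keeps calcium out of the channel. Uninjured OPCs held 241 Gria2 UMIs, a level of 1407 CPM (interval 1235 to 1596), and injured OPCs 91 UMIs, 774 CPM (623 to 950). NFOs held 62 UMIs, 659 CPM (505 to 844), and 279 UMIs, 793 CPM (703 to 892). The level was lower still in oligodendrocytes, with 39 UMIs, 9.4 CPM (6.68 to 12.8), and 17 UMIs, 7.38 CPM (4.3 to 11.8). In the order of the 6 classes, uninjured OPCs stood apart from the next class beyond counting error. Neighbours among injured NFOs, injured OPCs and uninjured NFOs did not differ from each other, and both oligodendrocyte classes lay below them. Among uninjured OPC barcodes 52 of 58 (89.7%, interval 78.8 to 96.1) had at least 1 Gria2 UMI, and among injured ones 13 of 17 did (76.5%, 50.1 to 93.2). It was also found in 15 of 44 and 32 of 100 NFO barcodes and in 26 of 857 and 11 of 293 oligodendrocyte barcodes. With each barcode thinned to 1000 UMIs, the shares were 73.8% and 53.7% of OPCs (44 and 15 barcodes deep enough), 27% and 31.3% of NFOs (30 and 64), and 0.844% and 0.625% of oligodendrocytes (700 and 160). Pdgfra, the receptor that defines OPCs and that oligodendrocytes lack, gave 0.36% and 0.131% in the same thinned oligodendrocytes.

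Gria3 (ENSMUSG00000001986; chromosome X, 41400854 to 41678601, plus strand) and Gria4 (ENSMUSG00000025892; chromosome 9, 4417896 to 4796234, minus strand) encode subunits that make the channel calcium-permeable when Gria2 protein is absent. Gria3 stood at 350 CPM (267 to 451; 60 UMIs) in uninjured and 400 CPM (294 to 531; 47 UMIs) in injured OPCs. It stood at 191 CPM (18 UMIs) and 68.2 CPM (24 UMIs) in NFOs, and at 0.723 CPM (3 UMIs) and 1.74 CPM (4 UMIs) in oligodendrocytes. Gria3 was thus close to the limit of detection in oligodendrocytes, where 2 barcodes in each library carried it. Gria4 did not fade in the same way: OPCs held 315 CPM (237 to 411; 54 UMIs) and 221 CPM (144 to 324; 26 UMIs), and NFOs 170 CPM (16 UMIs) and 85.3 CPM (30 UMIs). Oligodendrocytes held 31.8 CPM (26.6 to 37.7; 132 UMIs) without injury and 62.5 CPM (52.7 to 73.6; 144 UMIs) after ONC. Gria4 UMIs were found in 110 of 857 uninjured oligodendrocyte barcodes (12.8%) and in 76 of 293 injured ones (25.9%), with at most 2 and 6 UMIs in a barcode. Gria1 (ENSMUSG00000020524; chromosome 11, 57011387 to 57330244, plus strand), the main AMPA subunit of many forebrain neurons, had 0 UMIs in uninjured OPCs and NFOs and in injured NFOs. There was 1 Gria1 UMI in injured OPCs, 4 in uninjured and 3 in injured oligodendrocytes. For the 58 uninjured OPC barcodes, a count of 0 allows a level of up to 17.5 CPM, taking 3 UMIs over the class as the limit. 3′ UMIs show neither the edited site of Gria2 nor the flip and flop forms of these subunits.

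As a share of all AMPA subunit UMIs, Gria2 made up 67.9% (62.8 to 72.7) in uninjured and 55.2% (47.2 to 62.9) in injured OPCs, and 64.6% (54.2 to 74.1) and 83.8% (79.4 to 87.6) in NFOs. In oligodendrocytes Gria4 was the largest, with 74.2% (67.1 to 80.4) and 85.7% (79.5 to 90.6) of the AMPA subunit UMIs. Gria3 made up 16.9% (13.2 to 21.2) and 28.5% (21.7 to 36) in OPCs and 18.8% (11.5 to 28) and 7.21% (4.67 to 10.5) in NFOs. Gria2 was found in 52 of all 58 uninjured OPC barcodes, in 31 of the 33 with Gria3 and in 30 of the 31 with Gria4. In injured OPCs it was found in 13 of all 17, in 13 of 14 with Gria3 and in 9 of 9 with Gria4. In uninjured oligodendrocytes 26 of all 857 barcodes and 3 of the 110 with Gria4 had Gria2. In injured ones 11 of all 293 and 5 of the 76 with Gria4 did. Whether the subunits go together beyond the shares over all barcodes was not tested. A median of 3 of the 10 genes was detected per uninjured OPC barcode (range 0 to 7) and of 4 per injured one (0 to 7), and 56 of 58 and 15 of 17 held at least 1.

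**Figure D2:**
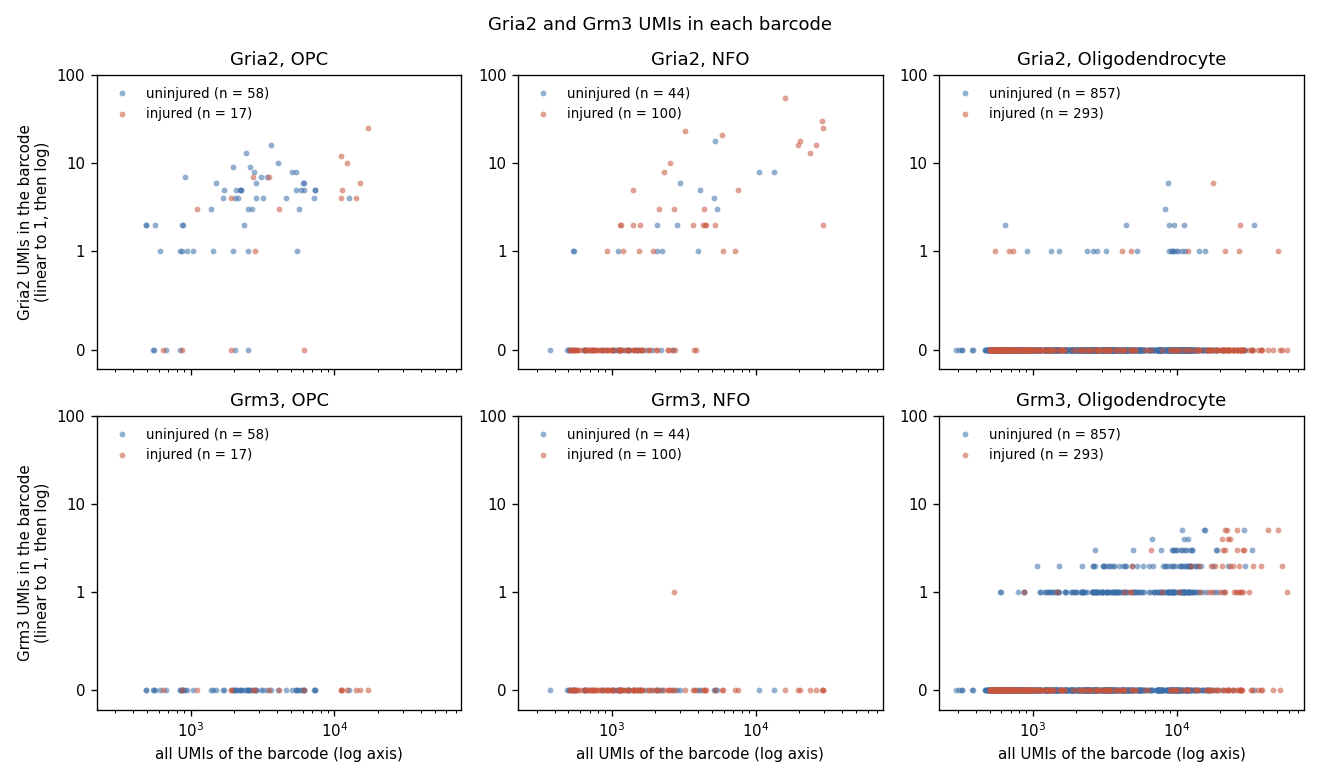
Gria2 UMIs (upper row) and Grm3 UMIs (lower row) against all UMIs of each barcode (log axis), by type and library; the vertical axis is linear to 1 and logarithmic above. Of the OPC barcodes, 52 uninjured and 13 injured ones lie above 0 for Gria2, which is highest, at 54 UMIs, in an injured NFO barcode, and for Grm3 1 NFO and 0 OPC barcodes do.

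The DNA just before the start of both genes is shown because Gria2 and Grm3 had opposite patterns along the lineage. Each window is the 250 bases before the RefSeq transcription start, read 5′ to 3′ on the gene's strand (GRCm38.p6). Capitals mark matches to CANNTG, the letters that basic helix-loop-helix factors such as those of the lineage recognise, searched on both strands (the motif reads alike on each).
Gria2, chr3:80802836-80803085, minus strand: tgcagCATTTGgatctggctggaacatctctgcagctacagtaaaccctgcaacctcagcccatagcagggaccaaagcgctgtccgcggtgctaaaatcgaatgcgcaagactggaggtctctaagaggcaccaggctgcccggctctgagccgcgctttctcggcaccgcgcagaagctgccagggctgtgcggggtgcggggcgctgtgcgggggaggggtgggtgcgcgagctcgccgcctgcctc
Grm3, chr5:9725353-9725602, minus strand: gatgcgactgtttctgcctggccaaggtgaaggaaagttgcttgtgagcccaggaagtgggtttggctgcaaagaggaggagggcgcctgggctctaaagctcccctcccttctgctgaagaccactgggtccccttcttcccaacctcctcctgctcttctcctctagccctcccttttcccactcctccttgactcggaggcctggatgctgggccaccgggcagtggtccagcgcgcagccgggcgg
The Gria2 window held 1 CANNTG match and the Grm3 window 0, and 66.2% of the 32851 windows of the reference table held at least 1. ACAAAG, a motif of SOX factors, was searched on both strands and had 0 matches in either window and a match in 16.5% of all windows. GC content was 64.8% before Gria2 and 62.4% before Grm3, with 19 and 8 CG pairs, against a median GC content of 52.4% over all windows. The RefSeq start equals the GENCODE start of Gria2 and lies 182 bases before that of Grm3. Windows were in the table for 6 of the 10 genes.

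Of the kainate receptor subunits, Grik2 had a pattern unlike that of Gria2, while Grik3, like Gria2, was lowest in oligodendrocytes. Grik2 (ENSMUSG00000056073; chromosome 10, 49094833 to 49788766, minus strand), a pore-forming kainate receptor subunit, stood at 93.4 CPM (53.4 to 152; 16 UMIs) in uninjured and 34 CPM (9.27 to 87.1; 4 UMIs) in injured OPCs. NFOs held 31.9 CPM (3 UMIs) and 22.7 CPM (8 UMIs). Oligodendrocytes held 30.8 CPM (25.7 to 36.7; 128 UMIs) and 63.8 CPM (53.9 to 75; 147 UMIs). These were 128 of 147 uninjured and 147 of 159 injured Grik2 UMIs of the lineage. Of the UMIs of all genes, oligodendrocytes held 4149375 of 4414834 and 2302349 of 2771797. No neighbouring pair in the order of the 6 classes differed beyond counting error. Grik3 (ENSMUSG00000001985; chromosome 4, 125490700 to 125714173, plus strand), a kainate subunit of low glutamate affinity, was highest in NFOs. It had 4 UMIs (42.5 CPM, 11.6 to 109) in uninjured and 21 UMIs (59.7 CPM, 36.9 to 91.2) in injured NFOs. OPCs held 6 and 3 Grik3 UMIs (35 and 25.5 CPM), and oligodendrocytes 11 and 7 (2.65 and 3.04 CPM). Neighbours among the NFO and OPC levels of Grik3 did not differ from each other beyond counting error, and the oligodendrocyte levels lay below them.

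Grin3a (ENSMUSG00000039579; chromosome 4, 49661611 to 49845744, minus strand) encodes a glycine-binding NMDA receptor subunit that lowers the calcium permeability of the channel. It stood at 210 CPM (147 to 291; 36 UMIs) in uninjured and 102 CPM (52.7 to 178; 12 UMIs) in injured OPCs. NFOs held 4 and 7 UMIs (42.5 and 19.9 CPM), and oligodendrocytes 4 and 2 (0.964 and 0.869 CPM). Its usual partner Grin1, which every NMDA receptor needs and which is named here after its values were seen, had 6 UMIs in uninjured OPCs, 2 in uninjured NFOs, 1 in injured oligodendrocytes and 0 in the other classes. Of the NMDA receptor UMIs, Grin3a made up 36 of 45 in uninjured and 12 of 12 in injured OPCs.

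Among the metabotropic receptors, Grm5 was found mainly in OPCs and Grm3 in oligodendrocytes. Grm5 (ENSMUSG00000049583; chromosome 7, 87584168 to 88134907, plus strand) belongs to group I, which raises intracellular calcium through phospholipase C. Its level was 280 CPM (207 to 371; 48 UMIs) in uninjured and 204 CPM (131 to 304; 24 UMIs) in injured OPCs, and its UMIs lay in 26 of 58 and 11 of 17 barcodes. NFOs held 4 and 2 Grm5 UMIs (42.5 and 5.68 CPM), and oligodendrocytes 1 and 0. The count of 0 in injured oligodendrocytes allows up to 1.3 CPM, so that OPCs held most of the Grm5 UMIs in spite of their small number.

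Grm3 (ENSMUSG00000003974; chromosome 5, 9485541 to 9725170, minus strand) belongs to group II, which lowers cyclic AMP. Uninjured oligodendrocytes held 348 Grm3 UMIs, 83.9 CPM (75.3 to 93.2), in 238 of 857 barcodes (27.8%, 24.8 to 30.9). Injured oligodendrocytes held 100 UMIs, 43.4 CPM (35.3 to 52.8), in 47 of 293 barcodes (16%, 12 to 20.8). There were 0 Grm3 UMIs in the OPCs of both libraries and in uninjured NFOs, and 1 in injured NFOs. These zeros allow up to 17.5 and 25.5 CPM in OPCs and 31.9 CPM in uninjured NFOs, levels below those of oligodendrocytes. Grm7 (ENSMUSG00000056755; chromosome 6, 110645581 to 111567230, plus strand), a group III receptor known from axon terminals, had 3 UMIs in uninjured OPCs, 5 in injured NFOs, 1 in uninjured oligodendrocytes and 0 elsewhere. It shares exon bases with Gm20387 on the other strand and is too rare here to be compared.

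The levels of OPCs and oligodendrocytes were compared within each library, calling a gene higher or lower where the ratio of CPM was at least 2-fold, among genes with at least 10 UMIs in both classes together. In the uninjured library 8 of the 10 genes could be compared, and Gria1 and Grm7 were below the minimum. Of the 8, 7 were higher in OPCs and 1, Grm3, was lower, where 28.0% and 12.5% of 10946 genes were higher and lower. Gria3, Grm5 and Grin3a had 3, 1 and 4 oligodendrocyte UMIs and reached the minimum only through OPCs. Once compared, they could only be called higher. OPCs held 171329 UMIs and oligodendrocytes 4149375, so a gene low in OPCs needed many more UMIs to be called. The shares over all genes follow the same rule. The ratio was 150 (106 to 216) for Gria2, 484 (158 to 2415) for Gria3 and 9.91 (7.08 to 13.7) for Gria4. For Grm5, with 1 UMI in oligodendrocytes, it was 1163 (199 to 46861). Grin3a had a ratio of 218 (78.1 to 843), Grik3 of 13.2 (4.01 to 39) and Grik2 of 3.03 (1.68 to 5.11), while Grm3 was at least 4.79-fold lower in OPCs, taking 3 UMIs for the count of 0 (limit of the interval, 3.87). Pdgfra, for comparison, had a ratio of 741 (419 to 1447). The median gene was 0.46 higher in OPCs on the log2 scale in this library and 0.52 higher in the injured one.

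In the injured library 8 genes could again be compared and 6 were higher in OPCs, where 27.0% of 10145 genes were, and 0 were lower, where 13.1% were. Gria3, Grik3, Grm5 and Grin3a reached the minimum only through their OPC UMIs, so they could only be called higher. The ratio was 105 (62 to 188) for Gria2, 230 (84.1 to 879) for Gria3, 117 (26.2 to 1081) for Grin3a and at least 157-fold for Grm5, taking 3 UMIs for the count of 0 (limit of the interval, 118). Grik3, with 3 and 7 UMIs, had a ratio of 8.39 (1.4 to 36.8). That of Gria4 was 3.53 (2.23 to 5.39), below the 9.91 of the uninjured library, and Grik2 was at 0.533 (0.143 to 1.39). Grm3 was at least 1.7-fold lower in injured OPCs by the same floor (limit of the interval, 1.36) and was not called. Within barcodes under 8000 UMIs, a limit added after seeing the data, 3 genes were called higher in injured OPCs (Gria2, Gria3 and Gria4), since Grik3, Grm5 and Grin3a then had fewer than 10 UMIs. When each barcode counted equally, the ratios were lower for Gria2 (46.2), Gria3 (75.4) and Grin3a (12.1), and the 6 genes were still called. Scaled to the median gene, Grik2 and Grm3 were called lower in injured OPCs, and the calls of the uninjured library were the same.

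**Figure D3:**
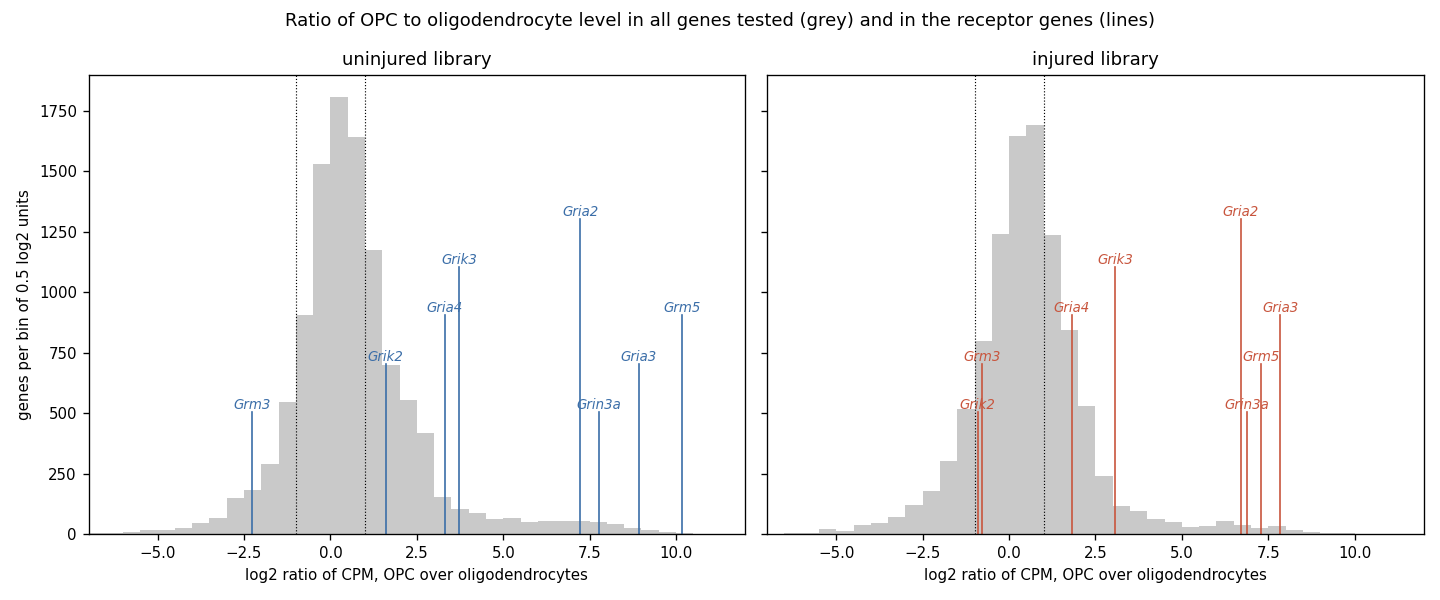
Histogram of the log2 ratio of OPC to oligodendrocyte CPM over all genes with at least 10 UMIs (grey; vertical axis, genes per bin), in the uninjured and injured libraries, with a line at the ratio of each receptor gene and dotted lines at 2-fold. Line heights carry no value, and the lines of Grm3 and, in the injured library, of Grm5 stand at bounds because 1 class had no UMI. Gria2, Gria3, Grm5 and Grin3a lie in the right tail in both libraries, and Grm3 lies left of 0.

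NFOs held Gria2, Gria3, Gria4 and Grik3 above oligodendrocytes in the uninjured library. Grm5 and Grin3a had 4 UMIs each in these NFOs, as Grik3 had, but were below the minimum for this comparison. Their ratios over oligodendrocytes were 176 (17.4 to 8684) and 44.1 (8.21 to 237). Compared with oligodendrocytes, 4 of 6 genes were higher in uninjured NFOs (Gria2, Gria3, Gria4 and Grik3) and 1 was lower (Grm3), where 24.3% and 11.6% of genes were. In the injured library 3 of 6 were higher (Gria2, Gria3 and Grik3) and 2 were lower (Grik2 and Grm3), where 18.4% and 17.5% of genes were. Gria3 in both libraries and Grik3 in the injured one reached the minimum only through NFOs, so they could only be called higher. The ratio of Gria2 in NFOs over oligodendrocytes was 70.1 (46.2 to 107) and 107 (65.9 to 187), and that of Grik3 was 16 (3.72 to 54.1) and 19.6 (8.04 to 54.7). Gria4 differed by less than 2-fold in the injured library, at 1.36 (0.888 to 2.03).

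Compared with NFOs, 4 of 7 genes were higher in uninjured OPCs (Gria2, Grik2, Grm5 and Grin3a) and 0 were lower, where 21.3% and 12.1% of genes were. In the injured library 4 of 7 were higher (Gria3, Gria4, Grm5 and Grin3a) and 1 was lower (Grik3), where 18.7% and 12.8% of genes were. Uninjured Grik2, and Grm5 and Grin3a in both libraries, reached the minimum only through OPCs, so they could not be called lower. Injured Grik3 reached it only through NFOs and could not be called higher. The intervals of uninjured Grik2 (2.93, 0.839 to 15.7) and injured Grik3 (0.427, 0.0816 to 1.43) take in 1. Grm5 was 6.59-fold (2.41 to 25.2) and 35.9-fold (8.91 to 313) higher in OPCs, and Grin3a 4.94-fold (1.77 to 19.1) and 5.13-fold (1.86 to 15.4). OPCs held 2.14-fold (1.61 to 2.87) the Gria2 level of NFOs without injury, whereas after ONC the ratio was 0.976 (0.762 to 1.24). For Gria3 the ratios were 1.83 (1.07 to 3.3) and 5.86 (3.51 to 10), so the larger one was that of the injured library.

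Within the NFO type, Gria2 lay mostly in barcodes that also held Gpr17, a receptor of the stage between OPC and myelinating cell. Split after seeing the data by the presence of a Gpr17 UMI, the 20 uninjured NFO barcodes with Gpr17 held 61 of the 62 Gria2 UMIs, 903 CPM (691 to 1160). The 24 without it held 1, 37.6 CPM (0.952 to 210). In the injured library the 38 barcodes with Gpr17 held 258 Gria2 UMIs, 931 CPM (821 to 1052), and the 62 without it 21, 281 CPM (174 to 429). The barcodes with Gpr17 were deeper, with medians of 2150 against 1060.5 UMIs and 2952.5 against 1010 UMIs. The part of depth in the result was not tested. A split by Mag, a myelin gene, gave 970 CPM in the 17 uninjured barcodes with Mag and 427 CPM in the 27 without it, and 924 and 227 CPM in the 50 injured barcodes with and the 50 without. The Gria2 level was thus also higher in the barcodes with Mag in both libraries, and those of the injured library held 264 of its 279 UMIs and were deeper (medians of 1988 and 1012 UMIs). Of the injured NFO barcodes, the 8 with at least 8000 UMIs held 174 of the 279 Gria2 UMIs at 899 CPM, and the other 92 stood at 664 CPM.

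The make-up of all glutamate receptor UMIs was computed over the 26 genes of the 7 receptor classes. AMPA subunits made up 67.5% (63.3 to 71.5) of them in uninjured and 68.8% (62.5 to 74.6) in injured OPCs, and 76.2% (67.8 to 83.3) and 73.3% (69 to 77.4) in NFOs. In oligodendrocytes they made up 14.4% (12.5 to 16.5) and 24% (20.8 to 27.3), and kainate subunits led with 42.9% (40.1 to 45.7) and 50.6% (46.9 to 54.4). Group II receptors, all Grm3, made up 28.2% (25.7 to 30.8) of the receptor UMIs in uninjured and 14.3% (11.8 to 17.1) in injured oligodendrocytes. Among kainate subunits of oligodendrocytes, the one with most UMIs without injury and the next after Grik2 after ONC was Grik1, not one of the 10 genes and named here after its values were seen, with 288 UMIs (69.4 CPM) and 141 UMIs (61.2 CPM). It had 3 and 2 UMIs in OPCs.

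**Figure D4:**
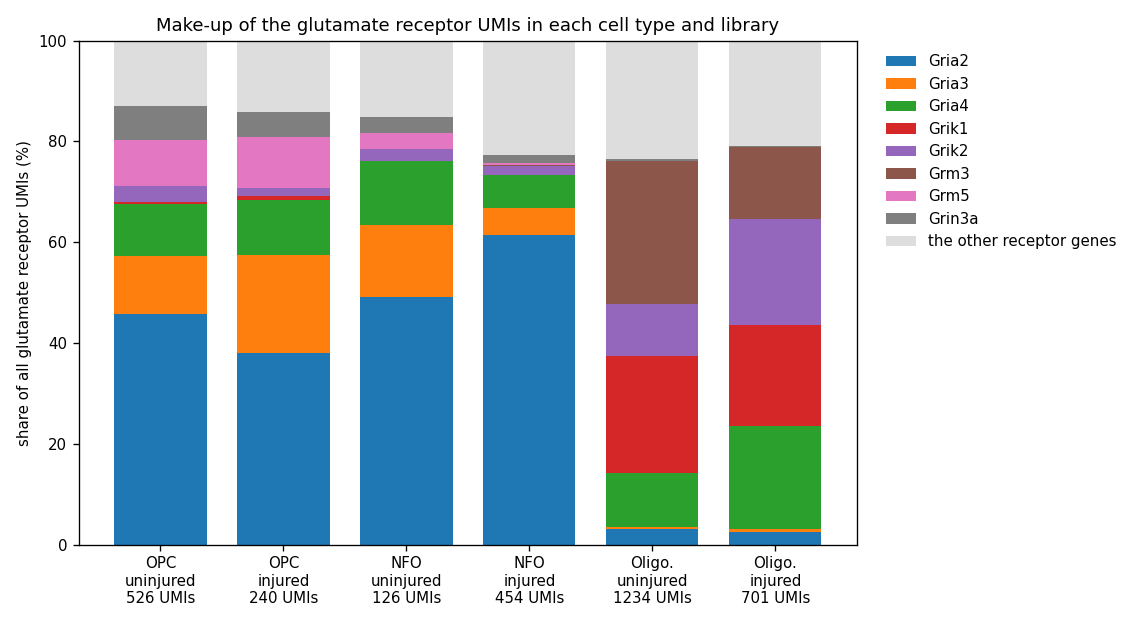
Share of each gene in all glutamate receptor UMIs of a class (vertical axis, percent; totals under the bars), for OPCs, NFOs and oligodendrocytes (Oligo.) of both libraries, with receptor genes not named pooled in grey. Gria2 is the largest part of the 4 OPC and NFO bars, and Grik1, Grik2, Gria4 and Grm3 make up most of the oligodendrocyte bars.

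RNA released by broken cells can enter any droplet, so the levels of Pdgfra, an RNA of OPCs and in part of NFOs, are given beside those of the receptor genes. Uninjured oligodendrocytes held 12 Pdgfra UMIs and 39 Gria2 UMIs, where OPCs held 367 and 241 and NFOs 19 and 62. Injured oligodendrocytes held 3 Pdgfra and 17 Gria2 UMIs, where OPCs held 113 and 91 and NFOs 15 and 279. The Gria2 and Gria3 counts of oligodendrocytes were thus small beside those of the other types, and the part of free RNA in them was not tested. For each Pdgfra UMI, uninjured OPCs held 0.147 Gria4 UMIs and oligodendrocytes 11, and the values were 0.0436 and 10.7 for Grik2 and 0 and 29 for Grm3. They were 0.657 and 3.25 for Gria2 and 0.163 and 0.25 for Gria3, and those of oligodendrocytes rest on 12 Pdgfra UMIs. Of the 10 neuron markers, 7 were found in uninjured oligodendrocytes, with 107 UMIs in 94 of 857 barcodes, and 3 (Syt1, Nefm and Slc17a6) were at 0.

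After ONC, OPCs held less receptor RNA in sum, and the ratios of single genes were unequal. The 10 genes together stood at 0.653 (0.552 to 0.771) of the uninjured level. Of 6 genes that could be compared, 0 were at least 2-fold higher and 2 were lower, where 14.9% and 12.6% of 5911 genes were. The 2 were Grik2, at 0.364 (0.0886 to 1.13) of the uninjured level from 4 and 16 UMIs, and Grin3a, at 0.486 (0.23 to 0.955) from 12 and 36 UMIs. Gria2 was 1.82-fold (1.42 to 2.34) lower, just inside the 2-fold limit, whereas Gria3 was at 1.14 (0.762 to 1.7), Gria4 at 0.701 (0.422 to 1.14) and Grm5 at 0.728 (0.427 to 1.21). Pdgfra was 2.23-fold (1.8 to 2.78) lower in the same comparison, and the auxiliary subunit Cacng4 was at 1.34 (1.03 to 1.74). The injured OPCs were 17 barcodes, 7 of them with at least 8000 UMIs against 1 of 58 without injury. With barcodes under 8000 UMIs alone, the summed ratio was 0.74, and Gria4 and Grin3a were the 2 genes called lower. Without the barcode with most UMIs of each gene, Gria2 was called lower as well. The part of depth in these ratios was not tested.

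In NFOs, the Gria2 level after ONC was 1.2 (0.911 to 1.61) of the uninjured one, a difference within counting error. Of 6 genes compared, 0 were at least 2-fold higher and 2 were lower, where 15.9% and 11.3% of 6391 genes were. Gria3 was 2.8-fold (1.43 to 5.39) lower, and Grin3a was at 0.468 (0.119 to 2.18), from 7 and 4 UMIs. Gria4 was 1.99-fold (1.01 to 3.78) lower and Grik3 was at 1.4 (0.474 to 5.63). When each barcode counted equally, Gria3 was at 0.533 and not called, and Grik3 was called higher, as it was in barcodes under 8000 UMIs. With types assigned by marker lists, the ratio of Gria3 was 0.824 and that of Grin3a 0.841, and neither was called, while Gria2 was then higher and Grm3 lower. Summed astrocyte markers stood at 776 CPM in uninjured and 1722 CPM in injured NFOs, and their part in these values was not tested.

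In oligodendrocytes the 3 genes with most UMIs did not share a direction after ONC. Of 5 genes compared, 1 was at least 2-fold higher (Grik2) and 0 were lower, where 9.59% and 7.23% of 11183 genes were. Grik2 was 2.07-fold (1.62 to 2.64) higher, Gria4 1.97-fold (1.54 to 2.51) higher, just inside the limit, and Grm3 1.93-fold (1.54 to 2.44) lower. Gria2 was at 0.786 (0.417 to 1.42) and Grik3 at 1.15 (0.377 to 3.24). When each barcode counted equally, the ratio of Grik2 was 1.09 and Grm3 was the 1 gene called, as lower. Scaled so that the median gene had a ratio of 1, Grik2 was just under 2-fold and Grm3 was past it.

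**Figure D5:**
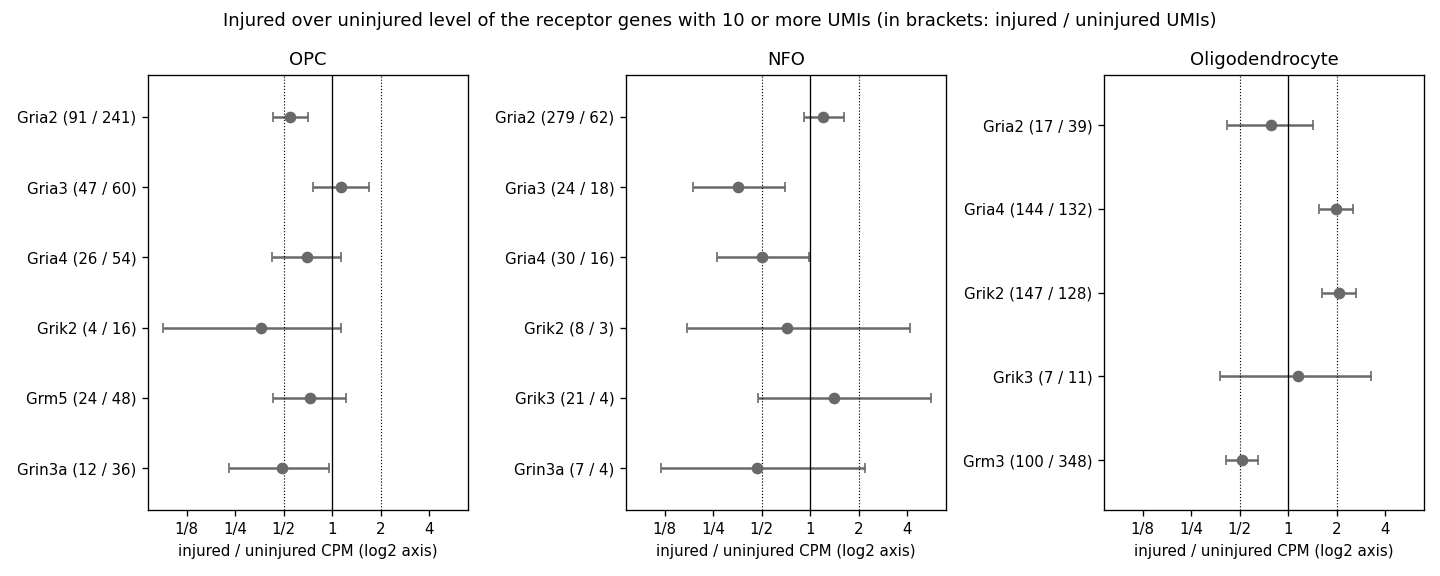
Ratio of injured to uninjured CPM (log2 axis) for receptor genes with at least 10 UMIs in OPCs, NFOs and oligodendrocytes, with 95% intervals of counting error, a line at 1 and dotted lines at 2-fold. The injured and uninjured UMIs are in brackets. Gria2 in OPCs lies at 0.55, Gria3 in NFOs at 0.357, and Gria4, Grik2 and Grm3 in oligodendrocytes at 1.97, 2.07 and 0.518.

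Since many injured oligodendrocyte barcodes held little Malat1, the same ratios were computed within parts of the type, chosen after seeing the data. The 133 injured barcodes with under 0.5% Malat1 held 0 Grik2, 2 Grm3, 2 Gria2 and 5 Gria4 UMIs among 128148 UMIs, with a median depth of 774 UMIs. Among barcodes with at least 0.5% Malat1 (160 injured and 809 uninjured), Grik2 was 2.17-fold (1.7 to 2.78) and Gria4 1.99-fold (1.56 to 2.55) higher, and Grm3 1.88-fold (1.5 to 2.37) lower. Depth still differed, with medians of 9803.5 and 3250 UMIs.

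Within these barcodes, those with at least 8000 UMIs (84 injured and 203 uninjured) gave 2.65 (1.89 to 3.75) for Grik2, 2.54 (1.85 to 3.51) for Gria4 and 0.599 (0.459 to 0.776) for Grm3. Those under 8000 UMIs (76 and 606) gave 4.3 (2.78 to 6.53) for Grik2, 1.87 (0.973 to 3.35) for Gria4 and 0.52 (0.234 to 1.01) for Grm3. The 3 values had the same direction in both depth ranges, although the last 2 intervals take in 1. Grik1 was at 1.14 (0.88 to 1.48) and 1.35 (0.83 to 2.09) in the same ranges. Among the injured barcodes with at least 8000 UMIs, Gria4 was found in 59 of 84 (70.2%), Grik2 in 54 (64.3%) and Grm3 in 39 (46.4%), against 46, 47 and 103 of 203 uninjured barcodes (22.7%, 23.2% and 50.7%). Median depths there were 22473 and 11054 UMIs, so these shares are not at equal depth. Thinning to 1000 UMIs left the 160 injured and 700 uninjured oligodendrocyte barcodes that were deep enough. Grik2 was then found in 7.82% of injured and 3.99% of uninjured barcodes, Gria4 in 7.01% and 3.61%, and Grm3 in 3.61% and 9.52%. Thinned to 500 UMIs (293 and 838 barcodes), the shares were 2.61% and 2.79% for Grik2, 2.45% and 2.18% for Gria4, and 1.2% and 4.52% for Grm3. At 500 UMIs the shares of Grik2 and Gria4 were thus close between the libraries.

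Some RNAs of proteins associated with these receptors differed along the lineage as well. The first list held 20 genes of auxiliary subunits and other associated proteins of AMPA and kainate receptors. Of these, 11 could be compared in the uninjured library. In OPCs 7 were at least 2-fold higher and 1 lower than in oligodendrocytes, where 28.0% and 12.5% of all genes compared were. In the injured library 5 of 12 were higher and 1 lower, where 27.0% and 13.1% of all genes were, and these shares are the background of the counts in both other lists as well. Whether the counts go beyond these shares was not tested. List genes that reached the minimum only through OPCs, such as Cacng4, could only be called higher. Unless said otherwise, the genes named were chosen by at least 20 UMIs in the OPCs of both libraries together. Cacng4, which carries AMPA receptors to the membrane, led with 718 CPM (123 UMIs) in uninjured and 961 CPM (113 UMIs) in injured OPCs and 1.45 and 0.434 CPM in oligodendrocytes. Shisa7 held 105 and 51 CPM in OPCs, Neto2 81.7 and 68 CPM, and Frrs1l 70 and 85 CPM. Shisa4, which shares the family name but is no established receptor subunit, was the 1 lower, with 193 and 136 CPM in OPCs against 679 and 288 CPM in oligodendrocytes.

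Of 16 scaffold and trafficking genes, 5 of 10 compared were higher and 1 lower in uninjured OPCs, and 5 of 9 were higher and 4 lower in injured OPCs. Dlgap1, a postsynaptic scaffold protein, stood at 321 and 255 CPM in OPCs and 2.65 and 0.869 CPM in oligodendrocytes. Of 12 genes of glutamate transport, synthesis and RNA editing, 5 of 9 and 6 of 8 were higher in OPCs, and 1 was lower in both libraries. Slc1a2 and Slc1a1, transporters that take up glutamate, held 444 and 298 CPM and 216 and 162 CPM in OPCs, and Slc38a1, a glutamine transporter, 280 and 111 CPM. Adarb2, a relative of the editing enzymes with no known editing activity, held 216 and 162 CPM. The lower gene was Glul, which makes glutamine from glutamate and is named after its values were seen, with 58.4 and 34 CPM in OPCs and 758 and 2041 CPM in oligodendrocytes.

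Of the other receptor genes with enough UMIs in OPCs, Grik5, a kainate subunit of high affinity, stood at 64.2 and 102 CPM in OPCs and 21.2 and 22.2 CPM in oligodendrocytes. Between injured and uninjured OPCs, 2 auxiliary genes were higher and 3 lower of 10, 0 scaffold genes were higher and 1 lower of 6, and 0 transport and editing genes were higher and 1 lower of 7, where 14.9% of all genes were higher and 12.6% lower, shares that counts this small cannot be set apart from.

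The genes with the pattern most like each receptor gene were ranked by Pearson's r over the 6 class levels, on log2(CPM + 10), among 9151 genes with at least 50 UMIs. With 6 points, which share libraries and depth, these are descriptions. The 3 nearest to Gria2 were Rac3, Tmem178 and Bzw2 (r of 0.996 each), and to Gria3 they were Arxes1, Cacng4 and Rcbtb2 (0.997 each). Gria4 was nearest to Ppp2r2b (0.996), Ccdc186 (0.992) and Exoc4 (0.991), and Grik2 to Camk2d (0.974), Atf1 (0.974) and Htra1 (0.969). For Grik3 they were Dlgap4, Ptpro and Timp4 (0.996 each), and for Grm3 A230009B12Rik, Nipal4 and Nipa1 (at least 0.999 each). Grm5 was nearest to Jarid2 (0.997), Dync2li1 (0.996) and Nup210 (0.995), and Grin3a to Dennd2a (0.997), Pdgfra (0.996) and Rasa2 (0.995). On log2(CPM + 50), all 3 were named again for Gria2 and Grik3, and 2 for Gria4, Grik2 and Grm3. None of those of Gria3, Grm5 and Grin3a was named again. Gria1 and Grm7 had too few UMIs to be ranked.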

How the data were processed

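Single cell suspensions of pooled optic nerves were captured on the 10x Chromium System (v2 kit) and sequenced. Per the submitters' processing notes and the study's methods, the authors used bcl2fastq 2.17.1.14, Cell Ranger 1.3 with the mm10 genome, and Seurat 4.0.3, dropped barcodes with fewer than 200 genes, over 20% mitochondrial UMIs or over 150000 UMIs, and sampled equal numbers of cells per library. They deposited, for the barcodes of the oligodendrocyte lineage, natural log values, made by scaling each barcode to a total of 10000 and adding 1 before the log, with a type and a condition for each barcode. Other cell types and the table of both libraries together were not used here. The treatment label names crush for both samples, so the uninjured library was assigned by its title.

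The deposited values were taken out of the log and divided by the smallest value of each barcode, which gave whole UMIs, within 0.001, in 100% of barcodes. UMIs were summed over each type and library and divided by all UMIs of that class (CPM). CPM have exact Poisson intervals, shares of barcodes exact binomial (Clopper-Pearson) intervals and ratios exact conditional intervals, all at 95% and for counting error only. A class with 0 UMIs was set to a floor of 3 UMIs over the class for a bound. The comparison of shares across depths used the exact expected share after thinning to 500 or 1000 UMIs. Doublets were not called here. With 1 library per condition no test was run. The ratio and thinning code was tested on simulated data. Python 3.11.15, numpy 2.4.6, scipy 1.17.1, pandas 2.3.3 and matplotlib 3.10.9 were used.

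The 10 genes and the gene lists were chosen with earlier results of these data known. Genes named are the 10, the genes of each list with at least 20 UMIs in the OPCs of both libraries together (at most 5 a list), the 3 genes most like each of the 10 with at least 50 UMIs, and any that the text says were named after their values were seen. Some genes that this rule names are not reported here. Coordinates are from GENCODE vM21 (GRCm38, counted from 1), in which 30438 of 31053 gene names were found, and promoter windows from RefSeq. Alternatives were a stricter filter (500 genes, 10% mitochondrial UMIs), the mean of per-barcode CPM, no barcodes under 0.5% Malat1, types from marker lists, leaving out the top barcode of a gene, minimums of 5 and 20 UMIs, scaling to the median ratio, and, added after seeing the data, barcodes under 8000 UMIs.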

Additional observations from a re-analysis of the deposited data

How the results depend on the processing

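Over all settings, 148 ratios of called genes stayed within the counting interval of the reported value, 11 lay beyond it, and 0 changed direction. A further 12 were below the minimum of UMIs. The minimums of 5 and 20 UMIs change no ratio, so the 19 and 15 ratios they add to the 148 were bound to stay. The intervals of genes with few UMIs are also wide, so that staying within them says little. The counts of genes called rest on few genes near 2-fold. In OPCs against oligodendrocytes, 7 genes were higher in the uninjured library under all settings but the minimum of 20 UMIs (6), and in the injured library between 4 and 6 under the planned settings and 3 in barcodes under 8000 UMIs. Between injured and uninjured OPCs, 1 gene was called in place of 2 under the stricter filter, and 3 with the mean of per-barcode CPM and without the top barcode of each gene. In NFOs, 1 was called in place of 2 without the top barcode and at a minimum of 20 UMIs, and 3 with the mean of per-barcode CPM, a minimum of 5 UMIs and median scaling. In oligodendrocytes, 2 were called in place of 1 under the stricter filter and at a minimum of 5 UMIs, and 3 with types from marker lists and in barcodes under 8000 UMIs. Gria2, otherwise not called there, was called lower in the former and higher in the latter. The summed ratio in OPCs ran from 0.571 to 0.74. The marker lists put 30 of 44 uninjured and 32 of 100 injured NFO barcodes among OPCs. Of the oligodendrocyte barcodes they put 24 of 857 uninjured and 46 of 293 injured ones among OPCs, and 101 and 95 among NFOs. Of the 24 genes named as most like a receptor gene, 12 were also named with a pseudocount of 50 CPM. Thinning to 500 UMIs moved all 27 shares of barcodes beyond their interval, and to 1000 UMIs 19 of 27. No paired analysis was possible because each condition has 1 library. Depth limits Gria1, Grm7 and Grik3 in all types and Grik2 in OPCs and NFOs.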
